A study of Mchenga conophoros with 13 samples.

Results

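Subpallial spots of the telencephalon are described here, compared between building and control males of the Lake Malawi cichlid Mchenga conophoros. Sections lay on Visium capture areas, where each barcoded spot takes up RNA from the tissue over it, usually from several cells. RNA was counted as unique molecular identifiers (UMIs), so that each captured molecule counts once. Spots were chosen by marker UMIs: a spot with at least 500 UMIs was called subpallial when its summed UMIs of gad2, dlx5, six3 and sp9 reached 5 and exceeded 2 times the summed UMIs of slc17a6, bhlhe22, LOC101480282 and LOC101472195, of which the last pair are listed by the study as homologs of human EOMES and NEUROD6. By this rule 1529 of 6624 spots were subpallial. Another 2481 spots were pallial by the mirrored rule and 2614 were neither.

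The fish were adult (over 180 days) males of a laboratory colony derived from wild-caught fish. The 2 building males were taken while constructing a bower, the sand structure to which females are courted, and the 2 control males had females and sand but were not constructing. No group carried a transgene or received an agent. Building male 1 was represented by a single capture area, labelled C, whereas building male 2, control male 1 and control male 2 had 4 each (A to D). All values rest on 4 males, spots and sections of a male are not replicates, and fewer cells of a type cannot be told apart from less RNA per cell in a spot.

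The subpallium is the ventral telencephalon, where most neurons release GABA and where the territories comparable to striatum, pallidum and septum lie. Its GABA neurons arise under transcription factors such as dlx5, sp9 and six3, and its more ventral cells also use Lhx6, Lhx8 and Nkx2-1. In fishes it belongs to the circuits of reproductive and social behavior. Immediate early genes, which neurons transcribe within minutes of excitation, serve as a trace of recent activity in such tissue.

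Subpallial spots made up 19.3% of the spots of building male 1 and 31.6% of those of building male 2, against 16.3% in control male 1 and 17.2% in control male 2. The 4 areas of building male 2 alone ran from 19.1% to 38.4%, a wider range than the 8 control areas covered (12.4% to 23.4%). The mean was 25.5% ± 8.68 in building males and 16.8% ± 0.651 in control males (SD, n = 2 each), and an exact two-sided permutation test gave p = 0.333, the smallest that 2 against 2 males allow. When spots with at least 1500 UMIs were thinned to that number and the marker minimum was lowered to 2 UMIs, the difference was 4.11 percentage points, against 8.69 before, and the groups overlapped (exact permutation p = 0.667). This setting left out 54 and 30 spots of building males, against 408 and 69 of control males.

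**Figure D1:**
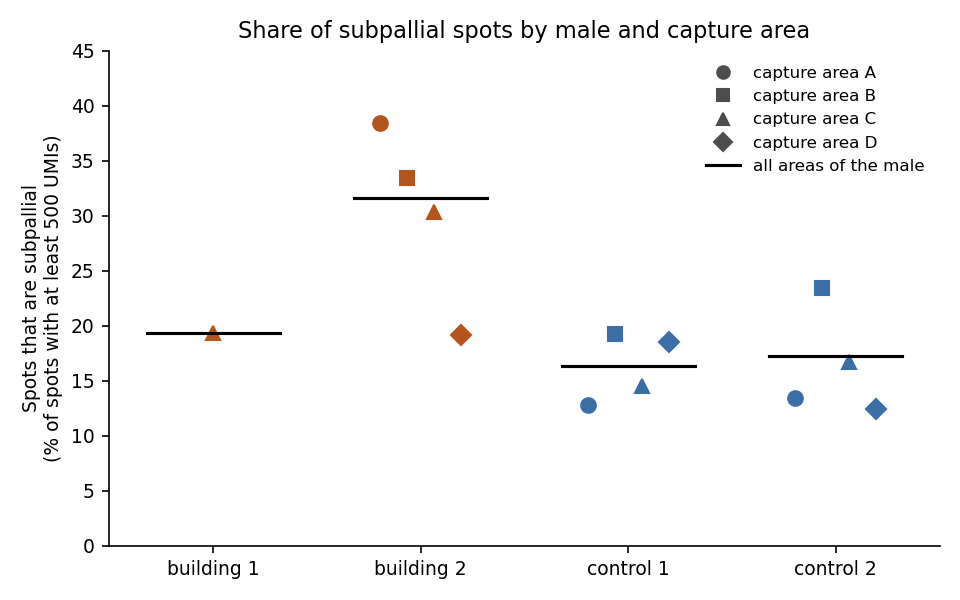
Share of spots that were subpallial (y axis, percent of spots with at least 500 UMIs) for each male (x axis). Symbols are capture areas and bars the value over all areas of a male. Building male 2 had both the highest area (38.4%) and an area at 19.1%, close to the only area of building male 1 (19.3%).

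The subpallial spots held 154 spots with 1425345 UMIs in building male 1 and 846 spots with 8611211 UMIs in building male 2, against 244 spots with 1270073 UMIs in control male 1 and 285 spots with 3097224 UMIs in control male 2. Median depth was 7627 and 9502.5 UMIs per spot in building males, against 4650 and 10480 in control males, so depth did not separate the conditions. At the threshold itself, 5 and 29 spots of building males were admitted with exactly 5 marker UMIs, against 18 and 14 of control males, and 6 and 32 spots of building males missed it with 4, against 35 and 7 of control males. The summed level of the 4 admitting markers in these spots, which the rule fixed, was 3510 and 2432 per 1000000 UMIs (CPM) in building males, against 2855 and 2413 CPM in control males.

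Genes that the rule did not use were mostly on the labelled side. Of 8 further genes of subpallial GABA neurons, 7 were higher in subpallial than in pallial spots in all 4 males, led by meis2, a homeobox factor (log2 ratio 5.29 ± 0.19), and gad1, which makes GABA (4.29 ± 0.29; SD, n = 4). Of 8 further pallial glutamate genes, 4 were lower in all 4 males, the most so LOC101484681, listed as the homolog of the glutamate transporter SLC17A7 (-4.27 ± 0.60; SD, n = 4). The factor emx2 went the other way (1.24 ± 0.49; SD, n = 4), at levels under 8 CPM in every male.

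Building was then compared with control on UMIs summed over the subpallial spots of each male. No gene passed the adjusted threshold: with edgeR's quasi-likelihood test, 0 of 12096 genes (0%) had an adjusted p under 0.05, and 127 (1.05%) had an unadjusted p under 0.05, of which 70 (0.579%) were higher and 57 (0.471%) lower in building males. DESeq2 called 4 genes, and limma voom on the 13 capture areas with the male as a block called 6. In that voom fit the areas of a male were correlated at 0.0198. It therefore weighed the 13 areas almost as separate samples, although they came from 4 males. For 1497 genes (12.4%) both building males lay above both control males, and for 1549 (12.8%) both lay below. The count of calls depended on single males: edgeR called 105 genes without building male 1 and 250 without building male 2, where the lone building male was assumed to vary like the others, and 0 without either control male.

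The higher end was led by ankrd46, which encodes an ankyrin repeat protein. It stood at 179 and 93.9 CPM in building males, against 31.6 and 33.9 CPM in control males. All 5 building areas (79.3 to 178 CPM) lay above all 8 control areas (0 to 51.7 CPM), the 0 being in control male 1 area C, the shallowest. The log2 fold change was 2.02 ± 0.33 (SE), and the gene did not pass edgeR's test (adjusted p = 0.9999), while DESeq2 called it (adjusted p = 0.000563). Building male 1 was higher than building male 2, and both were above both control males.

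LOC101485431 and LOC112432554, which no source used here annotates, had the same layout. LOC101485431 had 134 and 77.4 CPM in building males, against 22.9 and 35.2 CPM in control males (log2 fold change 1.79 ± 0.34, SE). LOC112432554 had 96.3 and 59.6 CPM in building males, against 23.7 and 28.9 CPM in control males (1.51 ± 0.29, SE). For both, each of the 5 building areas lay above each of the 8 control areas, and neither passed edgeR's test (adjusted p = 0.9999 for each). LOC101485431 was called by DESeq2 (adjusted p = 0.0185) and by limma voom on capture areas (adjusted p = 0.0202).

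Among the annotated genes at this end were tpbg, a membrane glycoprotein that restrains Wnt signaling, slc8b1, the mitochondrial sodium-calcium exchanger, and mpp1, a palmitoylated membrane scaffold. In building males tpbg had 38.7 and 47.7 CPM, against 20.5 and 24.0 CPM in control males. For slc8b1 the values were 22.5 and 26.0 CPM in building males, against 12.6 and 11.8 CPM in control males. For mpp1 they were 66.8 and 68.1 CPM in building males, against 42.6 and 43.4 CPM in control males. The males of each condition were close to each other in all 3 genes, with log2 fold changes of 0.96, 1.01 and 0.65, but the areas of both conditions overlapped.

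The gene with the lowest p of the comparison was LOC101480204, also without annotation, at 13.4 and 15.7 CPM in building males, against 68.7 and 64.8 CPM in control males. The 5 building areas held 12.4 to 19.97 CPM and the 8 control areas 39.4 to 103 CPM, without overlap. The log2 fold change was -2.16 ± 0.22 (SE), with an adjusted p of 0.364 from edgeR and 0.000563 from DESeq2. LOC112435701 was likewise lower in every building area (76.2 to 93.98 CPM) than in every control area (162 to 285 CPM), at 84.4 and 84.7 CPM in building males, against 180 and 233 CPM in control males (-1.29 ± 0.20, SE). It did not pass edgeR's test (adjusted p = 0.9999) and was called by DESeq2 (adjusted p = 0.0185) and limma voom on capture areas (adjusted p = 0.000151).

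Annotated genes at the lower end included fyttd1, an adaptor of mRNA export, and bhlhe23, a basic helix-loop-helix transcription factor. Levels of fyttd1 were 16.9 and 18.8 CPM in building males, against 35.5 and 37.8 CPM in control males (log2 fold change -1.02 ± 0.23, SE). Levels of bhlhe23 were 67.5 and 48.5 CPM in building males, against 96.3 and 103 CPM in control males (-0.81 ± 0.22, SE). Both missed the threshold (edgeR, adjusted p = 0.9999), and single control areas came down to the building range.

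**Figure D2:**
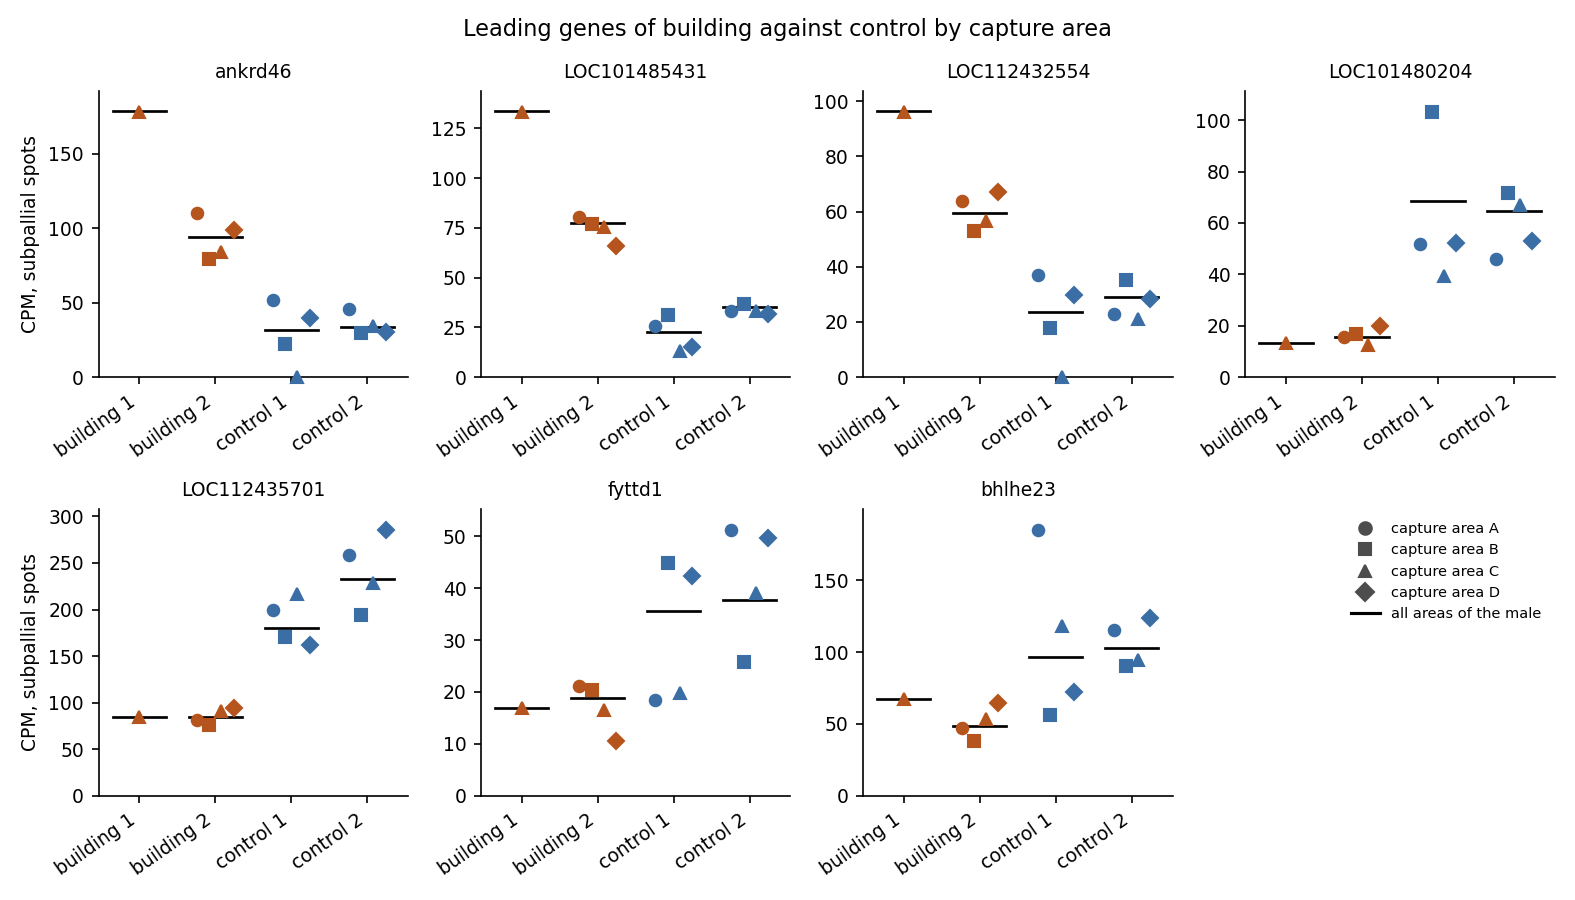
CPM in subpallial spots (y axis, from 0) of 7 leading genes for each male (x axis). Symbols are capture areas and bars the value over all areas of a male. For ankrd46, LOC101485431 and LOC112432554 all 5 building areas lie above all 8 control areas, and for LOC101480204 and LOC112435701 all 5 lie below.

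Of the 20 leading genes (10 in each direction), 18 had a pallial log2 fold change of the same sign, 2 of the other sign, and 16 kept both building males on the same side of both control males in pallial spots. Of all genes tested, 50.1% had a pallial log2 fold change above 0. How many of all genes kept the conditions apart in pallial spots was not counted, so the 16 has no share to be read against. The 20 were chosen by their subpallial difference in the same males, so these counts are no separate measure of it. edgeR's test of the difference between regions had an unadjusted p under 0.05 for 2.37% of all genes and for 6 of the 20. This test contains the subpallial difference by which the 20 were chosen, so the 6 cannot be read against that share. Among these 6 was bhlhe23, with log2 fold changes of -0.81 in subpallial and -0.22 in pallial spots (edgeR, unadjusted p = 0.00486). This gene was mainly pallial, with 757 and 637 CPM in pallial spots of building males, against 860 and 767 CPM in those of control males. Its subpallial levels were 67.5 and 48.5 CPM in building males, against 96.3 and 103 CPM in control males. In pallial spots of the same males ankrd46 had 156 and 89.2 CPM in building males, against 37.9 and 34.9 CPM in control males, and LOC101480204 had 27.0 and 21.2 CPM in building males, against 89.3 and 75.1 CPM in control males. The pallial log2 fold changes were 1.73 and -1.81, and the test of the difference between regions had an unadjusted p of 0.250 for ankrd46 and 0.257 for LOC101480204 (edgeR). With 2 males in each condition, a difference between conditions and one between individual fish cannot be told apart for these genes.

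Single males were also compared with each other. Among the 4170 genes of at least 50 CPM, 187 (4.48%) were over 2-fold apart between building male 1 and building male 2, 28 (0.671%) between control male 1 and control male 2, 129 (3.09%) between building male 1 and control male 1, and 24 (0.576%) between building male 2 and control male 2. Between the means of each condition, which averaging brings closer, the number was 22 (0.528%). Between building male 1 and building male 2, 95 of the 187 genes were higher in building male 1 and 92 lower. Those lower included peptide genes, ventral factors and myelin genes, and those higher included th and sall3. The examples here were chosen after their values were seen. Somatostatin (LOC101485677) had 30.2 and 6397 CPM in building males, against 1193 and 3443 CPM in control males. The LIM factor lhx8 had 1.41 and 151 CPM in building males, against 129 and 98.0 CPM in control males. Corticotropin-releasing hormone, crh, had 12.7 and 432 CPM in building males, against 107 and 348 CPM in control males.

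Counted by spot, 3.25% of the subpallial spots of building male 1 and 29.4% of those of building male 2 held a UMI of lhx6, lhx8, nkx2-1, prdm12 or LOC101475168 (ISL1) after thinning to 1500 UMIs, against 21.9% in control male 1 and 24.2% in control male 2. In pallial spots, which should lack most of these genes, the share was 2.42% and 3.61% in building males, against 3.06% and 3.76% in control males. These genes were chosen after they were seen to be low in building male 1, so the shares describe that pattern and are no separate measure of it. Without thinning, the subpallial shares were 12.99% and 56.5% in building males, against 33.2% and 56.5% in control males.

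Single capture areas of the other males had genes in common with the only area of building male 1, a pattern noticed after the values were seen and given without a test. The zinc finger gene sall3 was over 100 CPM in 4 of the 13 areas, 1 of each male: 296 CPM in building male 1 area C, 134 CPM in building male 2 area A, 266 CPM in control male 1 area A and 285 CPM in control male 2 area D. The other 9 areas held 4.98 to 36.8 CPM. The same 4 areas had the highest LOC101468530 (SP8), at 164 to 580 CPM, against 0 to 41.2 CPM in the rest, and the highest th, the dopamine-synthesis enzyme, at 82.3 to 248 CPM, against 0 to 65.7 CPM. A separate gene named sp8 was almost absent, at 2.11 and 1.17 CPM in building males, against 0 and 0.66 CPM in control males over all areas. In mice, Sall3, Sp8 and Th are known together from interneurons of the olfactory bulb. The dopamine transporter slc6a3 did not separate the 4 areas, with 40.7 to 145 CPM there, against 7.67 to 399 CPM in the rest. Whether these areas hold olfactory bulb tissue was not tested.

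These 4 areas contributed very unequally to the males. They held 100% of the subpallial spots of building male 1 and 37.5% of those of building male 2, against 19.3% in control male 1 and 14.7% in control male 2. For building male 1, the section and the individual cannot be told apart. The part of section in the differences between conditions was not tested. The leading genes were chosen from sums that include the 4 areas, so their layout there is no separate measure of their difference. Of all genes tested, both building males lay above both control males in the 4 areas for 19.8% and below for 17.8%. Inside the 4 areas 14 of the 20 leading genes had both building males on the same side of both control males as over all areas, 5 overlapped, fyttd1 among them, and 1, APK84_gt17, was reversed (30.2 and 23.9 CPM in building males, against 11.1 and 21.3 CPM in control males). Of those that kept their side, ankrd46 had 178 and 110 CPM in building males, against 51.7 and 30.1 CPM in control males, and LOC101480204 had 13.3 and 15.8 CPM in building males, against 51.7 and 53.1 CPM in control males.

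**Figure D3:**
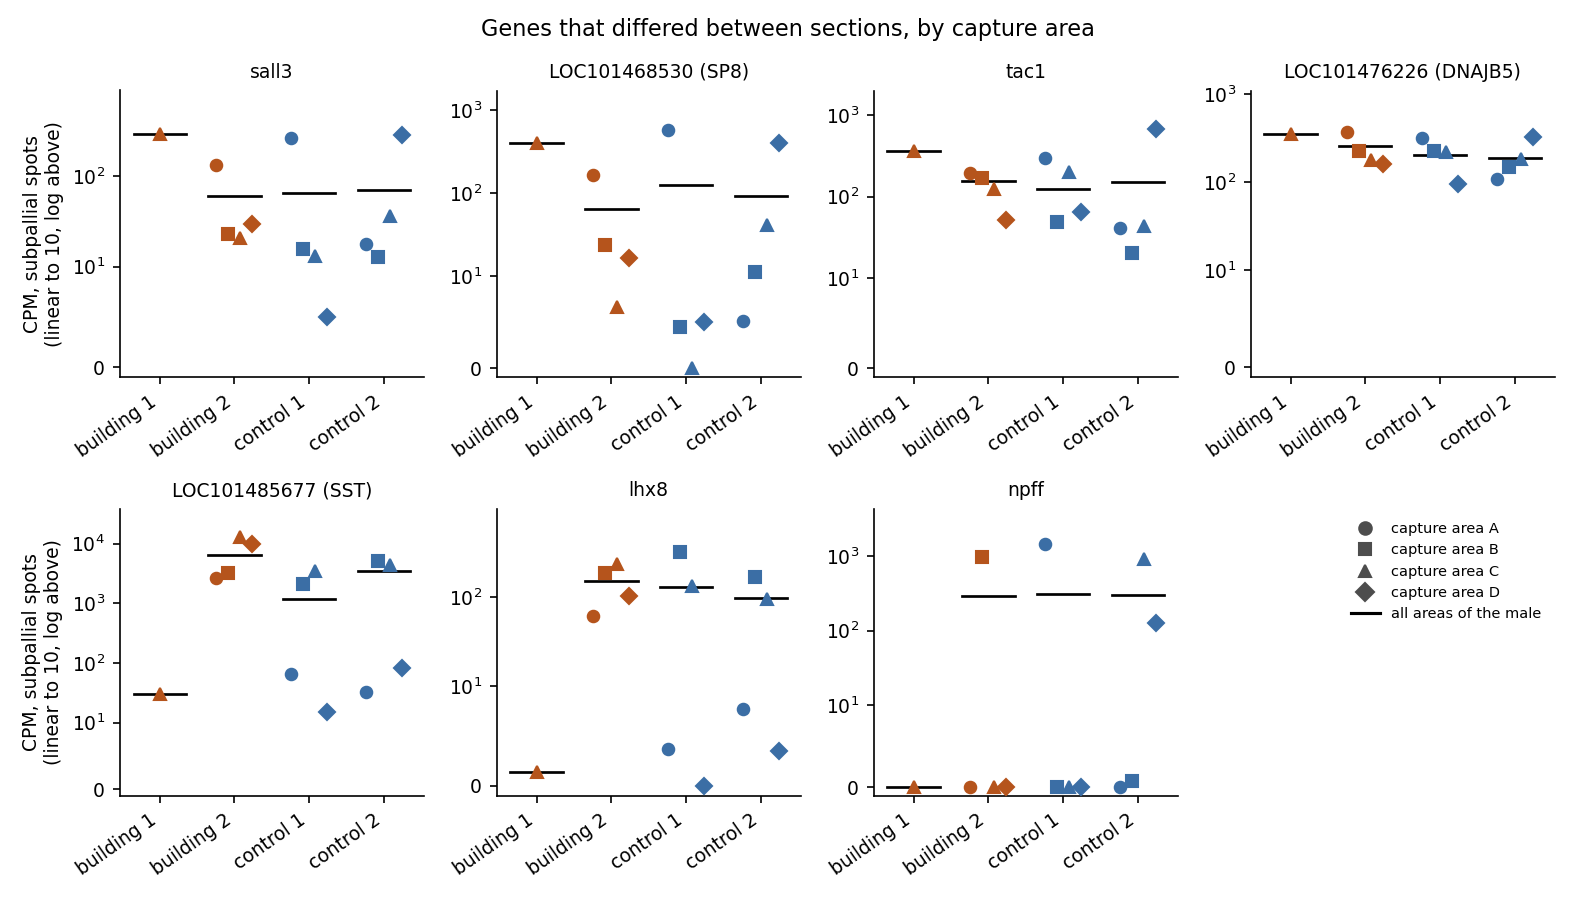
CPM in subpallial spots (y axis, linear to 10 and logarithmic above) of 7 genes that differed between sections, for each male (x axis). Symbols are capture areas and bars the value over all areas of a male. sall3 and LOC101468530 are high in 1 area of each male, and building male 1 has only such an area, with somatostatin (LOC101485677) at 30.2 CPM and npff at 0.

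Neuropeptide FF, npff, was also chosen after its values were seen. It had 0 UMIs in building male 1 and 2445 UMIs in building male 2, against 389 in control male 1 and 908 in control male 2. The 0 came from 1 section, and npff was also at 0 in 3 of the 4 areas of building male 2, and reached 975 CPM in its area B. In control males it was concentrated in control male 1 area A (1437 CPM) and control male 2 areas C (930 CPM) and D (128 CPM).

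Immediate early genes were taken from a list of 25 that the study derived from single nuclei of other males, and all 25 could be tested. None passed, 21 had a positive log2 fold change (50.4% of all genes did), and the median was 0.20, against 0.00 over all genes tested. For 4 of the 25 both building males lay above both control males, where 12.4% of all genes did, and for none did both lie below, where 12.8% did. The summed level was 4546 and 4873 CPM in building males, against 4391 and 3587 CPM in control males, lowest in control male 2. The median was 0.06 without control male 2, but stayed above 0 in all alternatives run. These alternatives reused counts of the same males, so the constant sign is no separate measure.

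The lowest p of the list belonged to LOC101476226, listed as the homolog of DNAJB5, a co-chaperone. It had 351 and 256 CPM in building males, against 202 and 189 CPM in control males (log2 fold change 0.63 ± 0.21, SE; edgeR, adjusted p = 0.9999). LOC101475150 (EGR4), a zinc finger transcription factor, had 525.9 and 451 CPM in building males, against 410 and 371 CPM in control males (0.32 ± 0.18, SE). Its relative egr1 had 489 and 304 CPM in building males, against 361 and 353 CPM in control males, and overlapped. LOC101487312 (FOS), an AP-1 subunit, also overlapped, with 120 and 97.5 CPM in building males, against 110 and 64.8 CPM in control males.

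Several of these genes also differed between sections. LOC101476226 had 350 and 367 CPM in the sall3-high areas of building males, against 314 and 329 CPM in those of control males, whereas the other 9 areas held 94.6 to 227 CPM. For egr1 the 4 areas held 469 to 682 CPM and the other 9 held 204 to 337 CPM. LOC101475150 and LOC101482945 (JUN) likewise had all 4 areas above the other 9, which makes 4 of 25 early genes (16.0%), against 252 of the 12096 genes tested (2.08%). LOC101475431, which the study also lists as EGR4, was not among these 4 genes. Inside the 4 areas LOC101475150 stood at 525 and 747 CPM in building males, against 451 and 503 CPM in control males. Outside them the 3 areas of building male 2 held 283 to 327 CPM, all below the 6 areas of control males (330.3 to 418 CPM). Building male 1 had no area outside the 4, so there only 1 building male was compared. Within the 4 sall3-high areas both building males lay above both control males for 10 of 25 early genes (40.0%), against 19.8% of all genes tested. They lay below for 2 of 25 (8%), against 17.8% of all genes tested. The summed level of the list there was 4536 and 6718 CPM in building males, against 4141 and 3957 CPM in control males. The control values came from single areas with 47 and 42 subpallial spots. Outside the 4 areas, building male 2 held 3483 to 4285 CPM, within the range of the control areas (3253 to 4880 CPM).

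In pallial spots the list did not move the same way, with a median log2 fold change of -0.12 and 10 of 25 values above 0 (50.1% of all genes tested there). LOC101476226 had 416 and 201 CPM in pallial spots of building males, against 403 and 391 CPM in those of control males. The difference between regions was positive for 18 of 25 genes, and 5 had an unadjusted p under 0.05, all positive: LOC101476226, LOC101487312, LOC101475150, plk2, a Polo-like kinase of synaptic scaling, and npas4, an activity-dependent transcription factor. LOC101475431, the other gene listed as EGR4, was not among the 5. Over all genes 2.37% had an unadjusted p under 0.05 in this test and 1.24% had it in that direction. None passed adjustment (edgeR, adjusted p = 1).

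**Figure D4:**
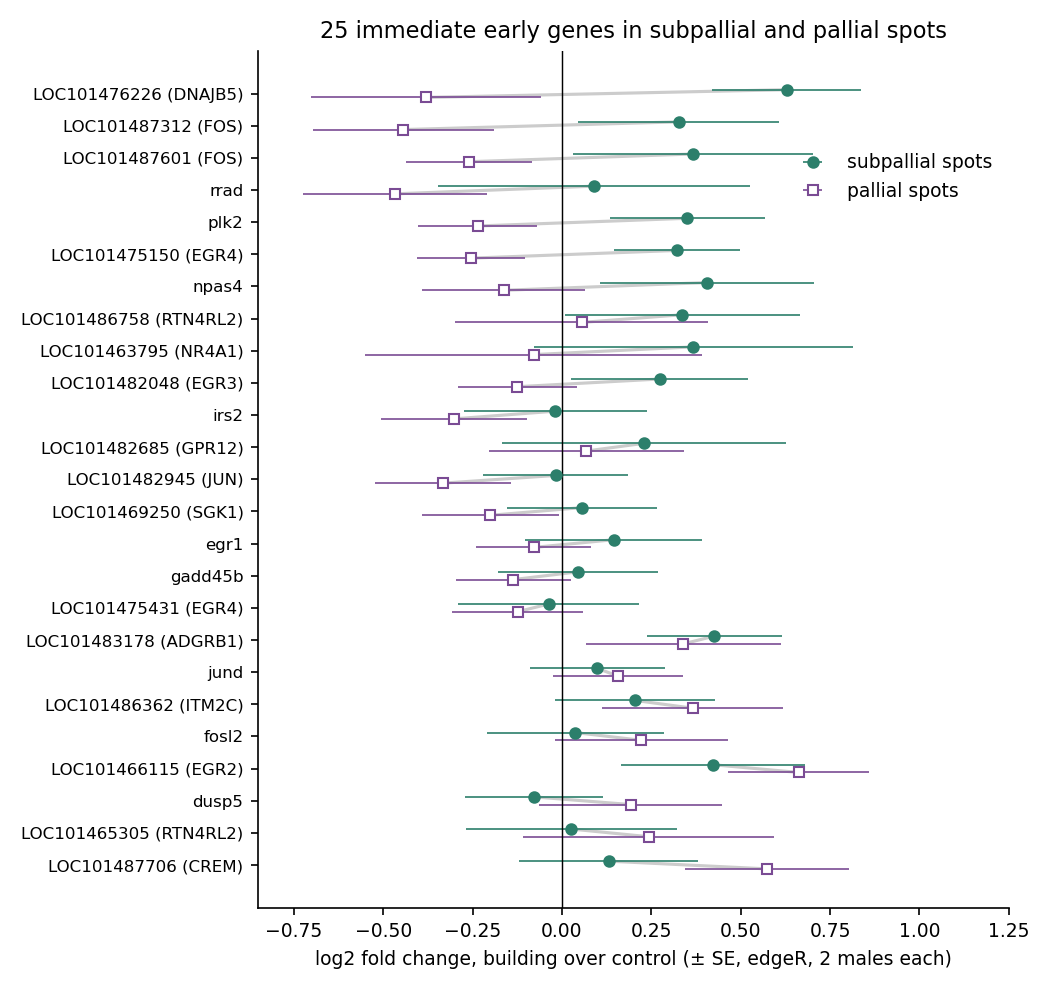
Log2 fold change of building over control (x axis, ± SE, 2 males each) of 25 immediate early genes (y axis, ordered by the difference between regions) in subpallial spots (filled) and pallial spots (open). Subpallial values have a median of 0.20 and pallial values one of -0.12, and no gene passed the test in either region.

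Genes of GABA signaling differed little. Of 7 tested, the rule gene gad2 among them, none passed, and 2 had both building males above both control males (12.4% of all genes did). The median log2 fold change was 0.19, which was the value of gad2 itself. As gad2 helped to choose the spots, this median is no separate measure. The median was -0.06 in capture area C alone. GABA synthesis through gad1 was at 301 and 347 CPM in building males, against 275 and 248 CPM in control males (0.31 ± 0.18, SE). The GABA transporter slc6a11, which in mammals is found on glia, was at 169 and 160 CPM in building males, against 141 and 119 CPM in control males (0.34 ± 0.18, SE). The rule gene gad2 overlapped, with 1451 and 1078 CPM in building males, against 1155 and 1054 CPM in control males. In the 4 sall3-high areas gad1 had 300 and 327 CPM in building males, against 347 and 383 CPM in control males. There slc6a11 had 168 and 89.7 CPM in building males, against 233 and 260 CPM in control males. For gad1 and slc6a11 both building males thus lay below both control males in these areas, the reverse of the order over all areas.

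Of 15 subpallial transcription factors tested, the rule genes dlx5, six3 and sp9 among them, none passed and the median was 0.05. Without overlap 2 lay higher and none lower, close to the 12.4% of all genes that lay higher. These 2 were dlx6 and the rule gene dlx5. As dlx5 helped to choose the spots, its place in this count is no separate measure. The median was -0.11 without building male 1. The homeobox gene dlx6, a partner of dlx5 in the same cluster, was at 241 and 261 CPM in building males, against 166 and 199 CPM in control males (0.46 ± 0.18, SE; edgeR, unadjusted p = 0.0416). The homeobox gene arx was high in building male 1 alone, with 193 and 77.1 CPM in building males, against 75.0 and 77.2 CPM in control males, and was another gene whose 4 sall3-high areas (105 to 225 CPM) lay above the other 9 (14.9 to 70.1 CPM). Of 8 ventral factors tested, 6 had a negative log2 fold change and the median was -0.43. That median became 0.29 without building male 1 and -2.16 without building male 2.

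Of 21 neuropeptide precursors tested, 13 were positive, 2 lay higher and 1 lower without overlap, no more than among all genes (12.4% and 12.8%), and none passed. The median of 0.10 was -0.44 without building male 2. Thyrotropin-releasing hormone, trh, had 103 and 57.9 CPM in building males, against 28.4 and 48.3 CPM in control males (log2 fold change 0.99 ± 0.36, SE). The substance P precursor tac1 had 362 and 155 CPM in building males, against 125 and 152 CPM in control males (0.88 ± 0.38, SE). Both genes also differed between sections: trh had 78.1 to 213 CPM in the 4 sall3-high areas and 0 to 60.6 CPM in the others, and tac1 had 195 to 675 CPM in those areas and 20.1 to 204 CPM in the others. By male, trh in the 4 areas was at 103 and 78.1 CPM in building males, against 85.0 and 213 CPM in control males. For tac1 the values there were 361 and 195 CPM in building males, against 296 and 675 CPM in control males. The conditions overlapped in these areas for both genes.

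Prodynorphin, pdyn, the precursor of opioid dynorphins, was the peptide gene that lay lower without overlap, with 3.52 and 10.6 CPM in building males, against 19.7 and 16.4 CPM in control males (-1.14 ± 0.47, SE). It rests on 5 and 90 UMIs in building males, against 25 and 50 UMIs in control males. Of the 25 UMIs of control male 1, 17 came from its area C, without which that male had 7.16 CPM and the conditions overlapped. Neuropeptide Y, npy, a peptide of many GABA neurons, had 1673 and 6287 CPM in building males, against 2679 and 3289 CPM in control males. Galanin, gal, a peptide of preoptic neurons, had 0 and 6.34 CPM in building males, against 108 and 1.64 CPM in control males, and the level of control male 1 came from its area C (900.2 CPM) alone.

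Among dopamine, serotonin and acetylcholine genes 12 were tested, and 6 were positive and 6 negative. The dopamine transporter slc6a3 had 146 and 81.2 CPM in building males, against 180 and 249 CPM in control males (-0.95 ± 0.31, SE). The dopamine receptor drd3 had 30.2 and 25.4 CPM in building males, against 12.6 and 16.1 CPM in control males (0.90 ± 0.27, SE). Neither passed (edgeR, adjusted p = 0.9999), and single areas of both conditions overlapped for both genes. In the 4 sall3-high areas slc6a3 was reversed, with 145 and 144 CPM in building males, against 85.0 and 40.7 CPM in control males. In those areas drd3 overlapped, with 30.2 and 29.6 CPM in building males, against 3.69 and 31.9 CPM in control males. The synthesis enzyme th overlapped between males, with 232 and 34.2 CPM in building males, against 66.3 and 49.96 CPM in control males.

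Of 4 peptide and cannabinoid receptor genes tested, 3 were negative and 2 lay lower without overlap (12.8% of all genes did). The cannabinoid receptor cnr1 was at 711 and 468 CPM in building males, against 712 and 737 CPM in control males (-0.30 ± 0.23, SE), where building male 1 and control male 1 were almost equal. Brain aromatase, LOC106675461 (CYP19A1), which in fishes is made by radial glia, was at 157 and 511 CPM in building males, against 168 and 210 CPM in control males (0.84 ± 0.49, SE), and overlapped. Parvalbumin, LOC101487165, a calcium-binding protein, was at 88.6 and 90.3 CPM in building males, against 69.5 and 56.9 CPM in control males (0.52 ± 0.19, SE). Its areas overlapped, with 36.9 to 250 CPM in building and 10.6 to 162 CPM in control areas. Of 5 calcium-binding and interneuron genes tested none passed, and it alone lay higher without overlap (12.4% of all genes did). Another parvalbumin gene, LOC101478422 (PVALB), had a log2 ratio of -2.03 between building male 1 and building male 2 (1 CPM added to each).

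Markers of other cell types were present in both conditions. The 12 radial glia genes had a median log2 fold change of 0.02, with summed levels of 4805 and 3777 CPM in building males, against 3632 and 3548 CPM in control males. Of the 12, 1 lay higher and 2 lay lower without overlap, where 12.4% and 12.8% of all genes did. Glutamine synthetase, LOC101463785 (GLUL), lay higher without overlap, at 1313 and 798 CPM in building males, against 730 and 753 CPM in control males, and gli3, a Hedgehog effector, lay lower, at 23.9 and 5.40 CPM in building males, against 28.4 and 34.2 CPM in control males. In the 4 sall3-high areas GLUL had 1310 and 821 CPM in building males, against 1267 and 1344 CPM in control males. Oligodendrocyte genes summed to 285 and 1491 CPM in building males, against 658 and 883 CPM in control males, so that the building males bracketed the control males. Microglia and blood-derived markers summed to 813 and 1005 CPM in building males, against 874 and 1127 CPM in control males, and pallial glutamate genes to 78.7 and 56.4 CPM in building males, against 66.3 and 82.8 CPM in control males.

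Genes of neuronal differentiation and cycling, from the study's lists for radial glia, had 17 members tested, 12 of them negative, a median of -0.18 and 4 lower without overlap, where 12.8% of all genes lay lower and 50.4% were positive. The replication helicase subunit mcm7 was at 14.1 and 16.1 CPM in building males, against 21.3 and 23.0 CPM in control males (-0.54 ± 0.26, SE). Of 66 cytosolic ribosomal protein genes, 65 were negative and 19 lay lower without overlap (12.8% of all genes did), with a median of -0.16. Their summed level was 82432 and 100619 CPM in building males, against 93288 and 111845 CPM in control males, which overlapped, and the median came to -0.03 without building male 1 and to -0.03 without control male 2. In the study's module of genes that diverge between castle-building and other species 9 were tested, with a median of 0.19 that was -0.23 without building male 1. Of these none lay higher and 2 lay lower without overlap, where 12.4% and 12.8% of all genes did. The summed levels of the module overlapped (438 and 285 CPM in building males, against 350.4 and 356 CPM in control males). Of 8 heat shock and chaperone genes the median was 0.01.

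**Figure D5:**
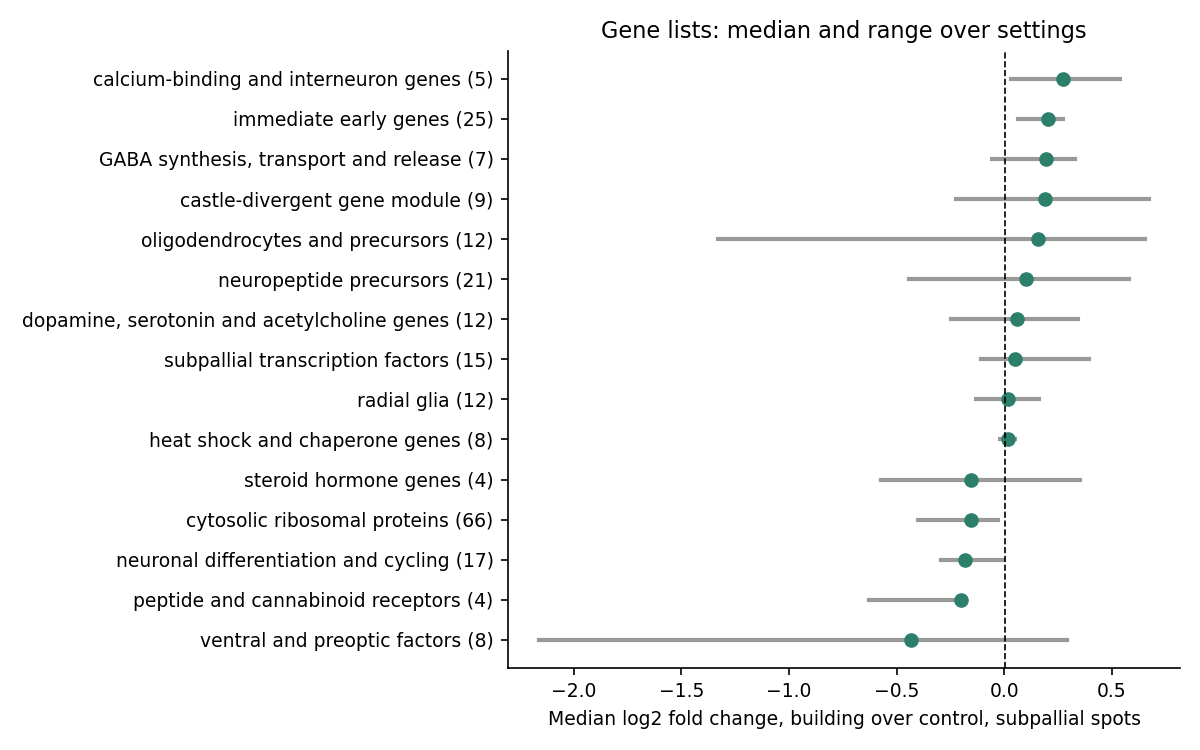
Median log2 fold change of building over control in subpallial spots (x axis) for each gene list (y axis, number of genes tested in brackets). Points are the main values, bars the range over the main and other settings, and the dashed line the median of all genes. The GABA list includes the rule gene gad2, and the subpallial factors include the rule genes dlx5, six3 and sp9. The ventral factors run from -2.16 to 0.29 and the immediate early genes from 0.06 to 0.27.

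The last comparison asked whether the difference between conditions was itself different in subpallial and pallial spots of the same males. No gene passed: 0 of 13434 genes (0%) had an adjusted p under 0.05, and 318 (2.37%) had an unadjusted p under 0.05, 1.24% being higher and 1.12% lower. In limma voom, with males as random blocks, none passed (0) and 415 genes had an unadjusted p under 0.05. In pallial spots alone 0 of 13994 genes passed and 301 (2.15%) had an unadjusted p under 0.05, 1.01% being higher and 1.14% lower.

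The 5 genes of lowest p in this test were aoc1, pdyn, npy, LOC101476226 and pla1a. The amine oxidase gene aoc1 had 5.62 and 27.4 CPM in subpallial spots of building males, against 18.2 and 12.2 CPM in those of control males, and in pallial spots 1.15 and 1.16 CPM in building males, against 8.93 and 7.98 CPM in control males. Its difference between regions was 3.53 ± 0.54 on the log2 scale (SE; edgeR, adjusted p = 1), and the pallial level in building males rested on 2 and 14 UMIs. The phospholipase gene pla1a had 30.2 and 36.9 CPM in subpallial spots of building males, against 24.5 and 31.6 CPM in those of control males, and in pallial spots 24.1 and 24.1 CPM in building males, against 43.9 and 51.4 CPM in control males. For both genes the conditions were apart in pallial spots and overlapped in subpallial spots.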

How the data were processed

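Coronal telencephalon sections of 2 building and 2 control males were profiled on 13 Visium capture areas. The deposited values are UMI counts that the authors obtained for every spot with Space Ranger 1.3.1 and the genome of a related species, Maylandia zebra, and did not normalize. Of 6755 barcodes, 131 spots had fewer than 500 UMIs and were left out. Barcodes mark slide positions, and 1631 of 2717 recurred between areas.

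Counts of subpallial spots were summed per male (1270073 to 8611211 UMIs) and compared in edgeR 4.0.16 by its quasi-likelihood test after filterByExpr and TMM scaling, with p-values adjusted over all genes by Benjamini-Hochberg. The method was tested on simulated data. Regions were compared with a term for each male. CPM of a male used TMM-scaled totals of tested genes, and CPM of an area used all its UMIs. The standard error of a fold change was its size over the root of the test statistic. Alternatives used DESeq2 1.42.0, limma 3.58.1, other scalings, filters, spot rules and left-out males.

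The members and lists were chosen with earlier results of these data known. Text genes were the 10 of lowest p in each direction at a mean of at least 10 CPM, list members of highest level or lowest p, the rule genes and the 5 of lowest p between regions. Of leading genes without annotation, 2 were named in each direction. Genes of the section pattern were chosen after their values were seen. Of 32471 genes in the files, names beginning LOC were paired with human homologs only where the study's tables do so. Mitochondrial genes and hemoglobins could not be identified by name, so leaving them out was not run. Replicates are separate males, and spot positions were not used.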

Additional observations from a re-analysis of the deposited data

Results flagged for a closer look

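Capture areas within a condition were screened for single values far from the others, in 102 sets of 5 building or 8 control areas. A value stood apart in 8. Chance alone gives about 1 in 20 for genes not chosen by their values. Some genes screened here were chosen after their values were seen, so that rate does not apply.

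In building areas, LOC101485431 was at 133 CPM in building male 1 area C, where the next area had 80.2 CPM. gli3 was at 23.9 CPM in the same area, where the next had 6.38 CPM. npff was at 975 CPM in building male 2 area B, where all other building areas had 0.

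In control areas, gal was at 900.2 CPM in control male 1 area C, where the next area had 3.34 CPM, and pdyn was at 112 CPM in the same area, where the next had 51.2 CPM. lhx6 was at 141 CPM in control male 1 area B, where the next had 61.3 CPM. In control male 2 area D trh was at 213 CPM and tac1 at 675 CPM, where the next areas had 85.0 and 296 CPM. That area was also among the 4 with high sall3, and the area of control male 1 that held gal was the shallowest, with a median of 2596 UMIs per subpallial spot.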

How the results depend on the processing

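No gene was called under RLE or TMMwsp scaling, stricter spots, a minimum of 2000 UMIs, thinning, capture area C alone, or 2 settings chosen after seeing the data (rule genes left out; spots without ventral factors). DESeq2 called 4 genes, capture areas with limma voom 6, and edgeR without a filter 60, of which 51 were also tested with it. Leaving out each male gave 0 to 250 calls: 105 without building male 1 and 250 without building male 2, the lone male being assumed to vary like the others. Between regions 43 genes were called without a filter. The share difference ran from 2.55 to 14.8 percentage points over left-out males. The cause of these differences was not tested. All 20 leading genes kept their direction in all 317 values from alternatives. These alternatives reused counts of the males from which the genes were chosen, so the agreement is no separate measure. Somatostatin (LOC101485677) ran from -6.26 to 1.47 on the log2 scale over left-out males and crh from -4.20 to 1.10. The labels do not say that replicate numbers mark the size-matched pairs of the study, and the deviations of males with equal numbers correlated at 0.114 (2 pairs). With a replicate block 0 genes were called and 192 had an unadjusted p under 0.05. Depth limits low genes, since 1 UMI weighs most in control male 1.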
